A study of Bos taurus with 14 samples.

Results

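Resident macrophage marker genes were described in longissimus dorsi, a back muscle, sampled on postnatal day 485 from 14 cattle, all female. The genes were 10 rows of the deposited table, chosen by symbol: MRC1, CD163, CD14, CSF1R, LAPTM5, CD68, AIF1, C1QA, C1QB and C1QC. The table held 18078 gene rows. All 10 genes passed a filter on low counts that kept 12187 genes for testing. The restricted group was 7 animals whose dams were fed below their nutrient requirement from day 158 of gestation to birth, and the control group was 7 animals whose dams were fed 100% of it. The labels give the restricted level as 70% in one place and 50% in another. All offspring were managed alike, with feed ad libitum from postnatal day 301, and whether any shared a sire or dam is not stated. Sample titles end in A (4 restricted and 5 control animals) or B (3 restricted and 2 control animals), a letter the labels do not explain. They begin with R (control 1, control 2 and restricted 1) or Y, which is also unexplained.

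Macrophages are phagocytes that live in the connective tissue around muscle fibres and around vessels and fat cells. They depend on signalling through the receptor encoded by CSF1R, clear dying cells and debris, and take part in the repair of damaged fibres. MRC1 (the mannose receptor, CD206) and CD163 (the scavenger receptor for haptoglobin-bound haemoglobin) are widely used to mark tissue-resident cells, and CD14 is a co-receptor for bacterial lipopolysaccharide. LAPTM5 and CD68 encode proteins of endosome and lysosome membranes, and AIF1 (IBA1) encodes a calcium- and actin-binding protein. C1QA, C1QB and C1QC encode the chains of C1q, which starts the classical complement pathway and is made largely by macrophages.

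Libraries held 13631018 to 17325779 counts per animal, of which 377 to 988 reads fell on the 10 markers. In whole muscle, fewer macrophages and less marker RNA per macrophage cannot be told apart. LAPTM5 is made by many leukocytes and CD68 and CD14 are not exclusive to macrophages, so other myeloid genes were examined. PTPRC, the pan-leukocyte phosphatase CD45, had 21 to 124 reads per animal and SPI1, the myeloid transcription factor PU.1, had 4 to 18. TYROBP, an adaptor of myeloid receptors, had 2 to 18 reads and was below the filter. Of 21 genes of myeloid receptors and adaptors, 17 were in the table and 4 passed the filter. None of the 9 neutrophil markers in the table passed, and of 17 T and NK cell markers 5 did. Control 7, restricted 4 and restricted 7 stood apart in interferon response genes, whose summed level ran from 36.9 to 565 CPM (counts scaled to library size, with normalization factors) in restricted and from 26.9 to 295 CPM in control animals.

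Levels were compared between genes per kilobase of gene model. LAPTM5 was at 7.85 ± 1.6 CPM per kilobase over the animals (SD, n = 14). AIF1 was at 1.97 ± 0.807, C1QB at 1.81 ± 0.601, MRC1 at 1.63 ± 0.825, C1QA at 1.38 ± 0.587 and C1QC at 1.35 ± 0.562 CPM per kilobase, 5 genes whose animals overlapped widely. CD68, CD14 and CSF1R followed at 0.857 ± 0.326, 0.78 ± 0.272 and 0.748 ± 0.355, and CD163 was lowest at 0.283 ± 0.163 CPM per kilobase. The 3 C1q chains lay close together: pooled over animals, the ratio per unit length was 1.02 for C1QA over C1QC, 0.766 for C1QA over C1QB and 0.754 for C1QC over C1QB. For scale, COL1A1, a chain of type I collagen made by fibroblasts, was at 17.0 ± 7.55 CPM per kilobase and ADIPOQ, the adipocyte hormone adiponectin, at 9.52 ± 5.59.

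The markers varied between animals by more than the counting error. The coefficient of variation of MRC1 was 50.5%, with 9.06% from counting alone at its mean of 122 reads. For CSF1R the values were 47.5% and 14.7%, for C1QA 42.5% and 15%, and for LAPTM5 20.4% and 6.07%. CD163 and CD68 rested on few reads, with means of 15.5 and 17.8 per animal and counting errors of 25.4% and 23.7%. The biological coefficient of variation of MRC1 and of CD163 was 0.463 and 0.475, above that of 97.6% and 97.7% of all genes tested. LAPTM5, at 0.191, was above 66.5% of genes, and the other 7 markers lay between these, from 88.2% to 96.9%. These ranks take in genes of all abundances, and this value tended to rise as counts fell. Against edgeR's trend for their abundance, CD68 lay below (0.289 against 0.299). C1QB (0.287 against 0.278), LAPTM5 (0.191 against 0.178) and CD14 (0.311 against 0.281) lay little above it. The other markers lay further above, as MRC1 (0.463 against 0.21) and CD163 (0.475 against 0.299) did. Over most markers the same animals were high or low. Restricted 7 was among the 3 highest animals for 7 of the 10 genes, restricted 1 and control 6 for 6 each and control 7 for 5. Control 1 was among the 3 lowest for 9 of the 10, with MRC1 the exception.

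The first comparison asked whether the markers differed with how the dam had been fed. None of the 10 passed an adjusted p of 0.05 by edgeR's quasi-likelihood test, where 0% of all genes tested did. None had an unadjusted p under 0.05, which 4.25% of all genes had. DESeq2 called 1 gene of all tested (0.00821%) and limma voom 0 (0%). With each of these tools 0 of the 10 markers had an unadjusted p under 0.05, against 4.33% of all genes with DESeq2 and 4.81% with limma voom. Of the 10 genes 5 lay on the higher side in restricted animals, the median difference was 0.011 log2 and that over all genes was -0.00079. The restricted and control animals overlapped for each marker.

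Among the receptors for uptake, MRC1 ran from 3.11 through a median of 6.80 to 14 CPM in restricted animals, and from 3.04 through 6.79 to 13 CPM in control animals. Both groups spanned the same range, and the ratio was 0.955 (95% interval 0.564 to 1.62). CD163 ran from 0.324 through 0.838 to 1.45 CPM in restricted animals and from 0.140 through 0.991 to 2.33 CPM in control animals. Both the lowest and the highest animal were controls, control 1 with 2 reads and control 7 with 37, and the ratio was 0.821 (0.449 to 1.5). CD14 ran from 1.16 through 2.26 to 3.68 CPM in restricted animals and from 1.33 through 2.16 to 2.98 CPM in control animals, a ratio of 1.07 (0.728 to 1.56). For the growth factor receptor CSF1R, restricted animals ran from 1.10 through 2.18 to 5.21 CPM and control animals from 1.12 through 2.54 to 4.43 CPM. Restricted 7 was the highest animal and restricted 3 the lowest, and the ratio was 0.949 (0.574 to 1.57).

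LAPTM5 had the narrowest interval of the 10. It ran from 15.2 through 15.6 to 22.7 CPM in restricted animals and from 12.9 through 14.4 to 24.3 CPM in control animals. All 7 restricted animals lay above the control median, but the means were both 17.0 CPM and the ratio was 0.998 (0.808 to 1.23). CD68 had the ratio farthest above 1, 1.24 (0.832 to 1.86), with 0.713 through 1.35 to 1.64 CPM in restricted animals and 0.631 through 0.758 to 1.90 CPM in control animals. Of the restricted animals 6 lay above the control median, while the highest of all was control 6 (unadjusted p = 0.27, adjusted p = 1 by edgeR). AIF1 ran from 0.693 through 1.29 to 2.43 CPM in restricted animals and from 0.491 through 1.31 to 1.95 CPM in control animals, a ratio of 1.15 (0.738 to 1.78).

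The C1q chains had ratios near 1. C1QA ran from 1.77 through 2.58 to 4.36 CPM in restricted animals and from 1.28 through 2.48 to 5.78 CPM in control animals, a ratio of 0.976 (0.643 to 1.48). C1QB ran from 1.61 through 2.35 to 4.07 CPM in restricted and from 1.47 through 2.10 to 3.45 CPM in control animals, a ratio of 1.04 (0.731 to 1.47). C1QC ran from 0.972 through 1.23 to 2.38 CPM in restricted and from 0.678 through 1.16 to 2.56 CPM in control animals, a ratio of 1.02 (0.657 to 1.58). Of the 10 intervals, those of LAPTM5 and C1QB left out a 1.5-fold difference in both directions, and the other 8 did not.

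**Figure D1:**
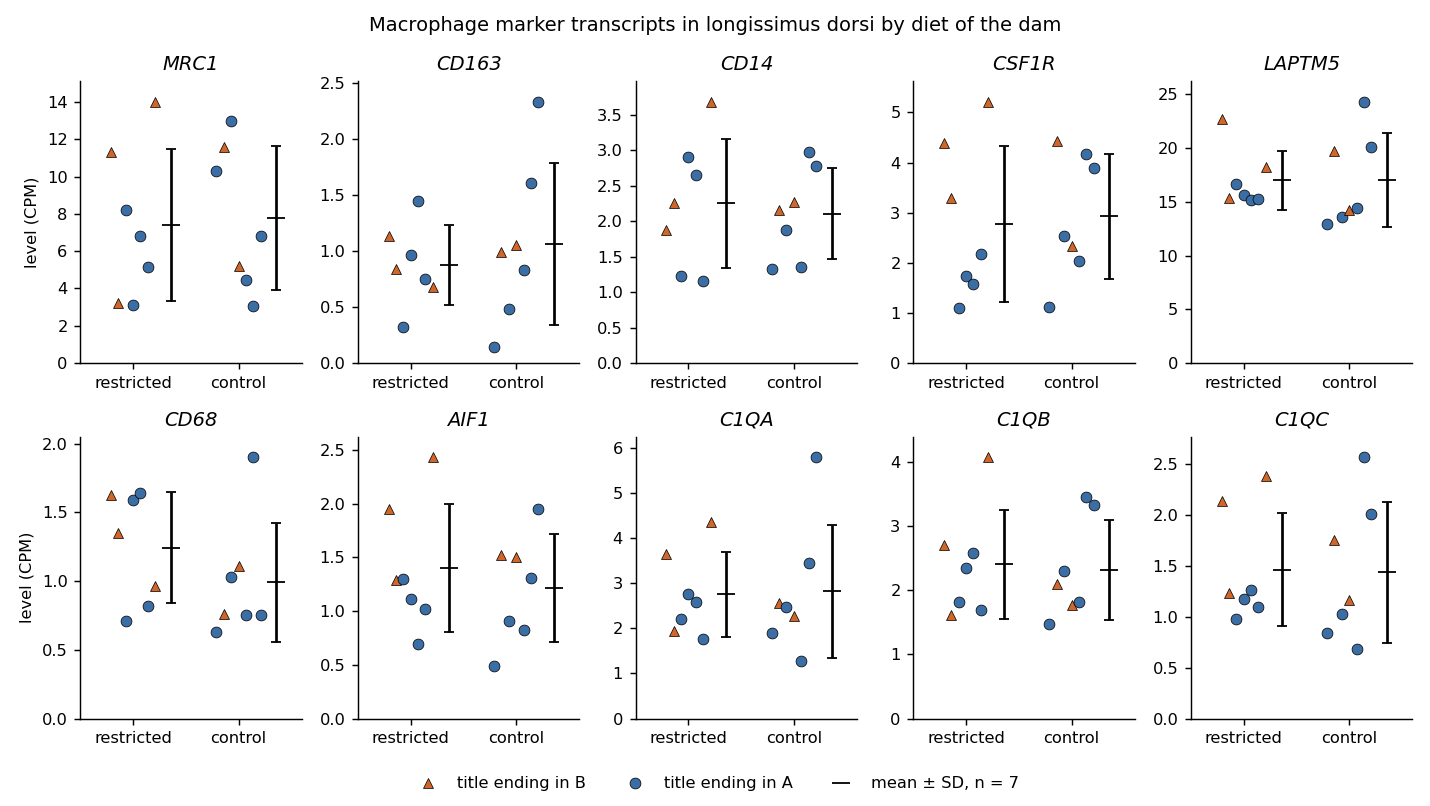
Levels of the 10 markers in CPM (y axis, from 0) in restricted and control animals, 1 symbol per animal, triangles for titles ending in B and circles for A, with the mean and SD of 7 animals beside each group. Restricted and control animals overlap in every panel, as in MRC1 at 3.11 to 14 CPM in restricted and 3.04 to 13 CPM in control animals.

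The second comparison asked whether the markers varied together over the 14 animals. Over the 36 pairs of the other 9 markers, Pearson's r of log2 CPM ran from 0.14 to 0.87 with a median of 0.60, and 28 pairs had r above 0.5. Spearman's rho ran from 0.12 to 0.90 with a median of 0.59. All 36 were positive over the 14 animals, and each negative pair of the 45 held MRC1. Without the 2 animals farthest from the median of 1 gene of the pair the median r was 0.54, and 2 of the 36 were negative, LAPTM5 with CD68 at -0.15 and CD163 with AIF1 at -0.05. Within the 9 animals with titles ending in A the median was 0.69 and the lowest 0.09. Leaving out any 1 animal gave medians from 0.53 to 0.68, and without control 1 the lowest r was -0.11. The 5 animals with titles ending in B were too few for a value of their own.

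The C1q chains varied together most closely as a family, with r of 0.86 for C1QA and C1QB (rho = 0.90, permutation p = 4e-05 for each), 0.85 for C1QA and C1QC (rho = 0.85, permutation p = 8e-05 and 0.00025) and 0.83 for C1QB and C1QC (rho = 0.77, permutation p = 0.00039 and 0.00193). C1QB was highest in restricted 7, at 4.07 CPM, and lowest in control 1, at 1.47 CPM, and C1QA was at 4.36 CPM in restricted 7 and 1.89 CPM in control 1. The ratio of C1QA to C1QB reads stayed between 0.708 in control 5 and 1.74 in control 7. The genes of C1QC and C1QA are neighbours in the RefSeq annotation of a later assembly (ARS-UCD2.0), and C1QB lies beyond 1 uncharacterised locus from C1QC. Whether the authors' counting used strand is not given, so reads of overlapping genes could not be told apart.

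Outside that family, LAPTM5 followed C1QC with r = 0.87 (rho = 0.80, permutation p = 0.00012 and 0.00103; r = 0.81 without the 2 animals farthest from the median of LAPTM5). LAPTM5 was at 22.7 CPM in restricted 1 and 24.3 CPM in control 6, where C1QC was at 2.13 CPM in restricted 1 and 2.56 CPM in control 6. CSF1R followed C1QC with r = 0.82 (rho = 0.77, permutation p = 0.00054 and 0.00195) and AIF1 with r = 0.77 (rho = 0.77, permutation p = 0.00123 and 0.00205). CD14 followed C1QB with r = 0.77 (rho = 0.71, permutation p = 0.00163 and 0.00542). CD163 had r from 0.48 to 0.60 with each of the other 8. CD68 was the loosest of the 9, with r of 0.14 with AIF1, 0.26 with C1QA and 0.56 with CD14, and its counting error was also among the widest.

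The same relations were fitted across all genes, with 1 marker at a time as the predictor. With C1QB as predictor edgeR called 2 of the other 9 markers, C1QA (adjusted p = 0.0176) and C1QC (adjusted p = 0.0441), where 0.336% of all genes were called. At an unadjusted p under 0.05 it had 7 of the 9, against 9.10% of all genes. With C1QC as predictor it called 3 of 9, LAPTM5 (adjusted p = 0.022), C1QA (adjusted p = 0.0293) and CSF1R (adjusted p = 0.0319), where 0.222% of all genes were called. With C1QC, 7 of 9 had an unadjusted p under 0.05, against 7.60% of all genes. With the other 8 markers as predictors 0 of 9 were called in each fit. At an unadjusted p under 0.05 there were 7 of 9 with CSF1R (6.75% of all genes), CD14 (7.95%), CD163 (4.93%) and C1QA (7.93%), 6 of 9 with LAPTM5 (5.92%) and AIF1 (7.58%), and 0 of 9 with CD68 (4.65%). All genes called came to 0.0328% with CSF1R, 0.0164% with C1QA and 0% with MRC1, CD163, CD14, LAPTM5, CD68 and AIF1. These 5 calls depended on single animals: 0 were made without restricted 7, 1 without restricted 1 or control 1, 2 without restricted 3 or control 7, and 3 without control 6. No call was made in the 11 animals left without control 7, restricted 4 and restricted 7, where the median r of the 36 pairs was 0.67.

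**Figure D2:**
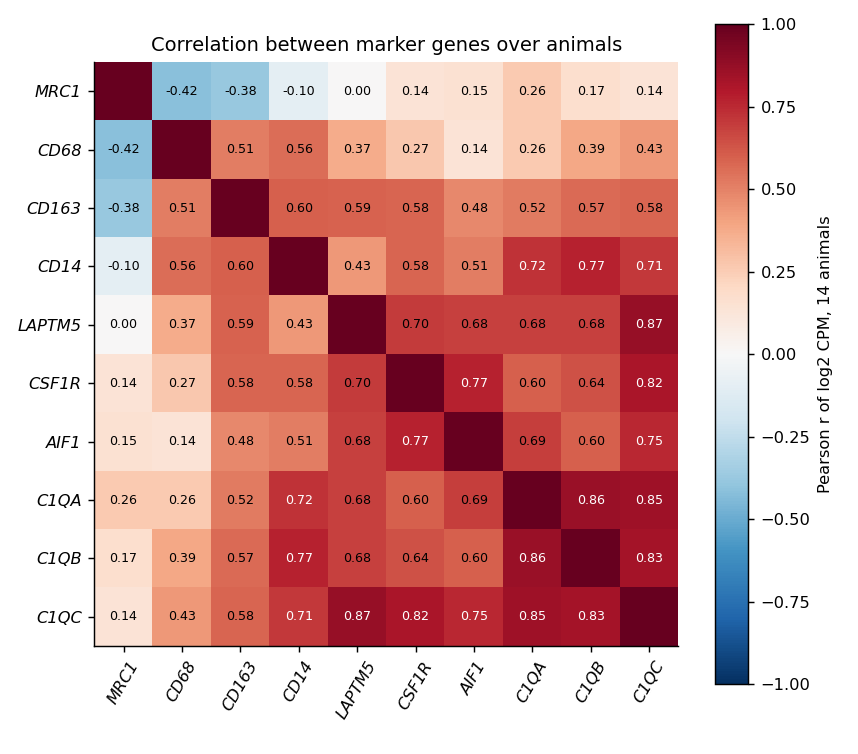
Pearson's r of log2 CPM between each pair of markers over the 14 animals, from blue at -1 to red at 1, with the value in each cell. The 9 markers other than MRC1 form a block of positive values from 0.14 to 0.87, and the row of MRC1 runs from -0.42 to 0.26.

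MRC1 had lower values of r with the rest. Its r with the other 9 ran from -0.42 with CD68 to 0.26 with C1QA, with a median of 0.14, and the smallest permutation p was 0.13. With MRC1 as predictor 0 of 9 markers had an unadjusted p under 0.05, against 5.96% of all genes. The animal with the lowest MRC1, control 6 at 3.04 CPM, had the highest LAPTM5, CD68 and C1QC, at 24.3, 1.90 and 2.56 CPM. Control 1, with the lowest LAPTM5, CD163, CD68, AIF1 and C1QB, had 10.3 CPM of MRC1, above 9 of the other animals. Restricted 7 was high in both, with MRC1 at 14 and C1QB at 4.07 CPM. Reads of MRC1 came to 0.879 times those of C1QB in control 6 and 7 times in control 1, a 7.96-fold range, while C1QA over C1QB ranged 2.45-fold. Within titles ending in A all 9 values of r were negative, from -0.56 with CD68 and CD163 to -0.07 with C1QA. Without the 2 animals farthest from the median of MRC1, 7 of the 9 were positive with a median of 0.22, and r was 0.50 with C1QB, 0.48 with C1QA and 0.43 with C1QC. MRC1 averaged 122 reads per animal, more than any marker but LAPTM5, and its counting error of 9.06% was the second smallest. The animals with titles beginning in R, control 1, control 2 and restricted 1, had 10.3, 11.6 and 11.3 CPM of MRC1. Of those beginning in Y, control 3 and restricted 7 were higher, at 13 and 14 CPM.

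**Figure D3:**
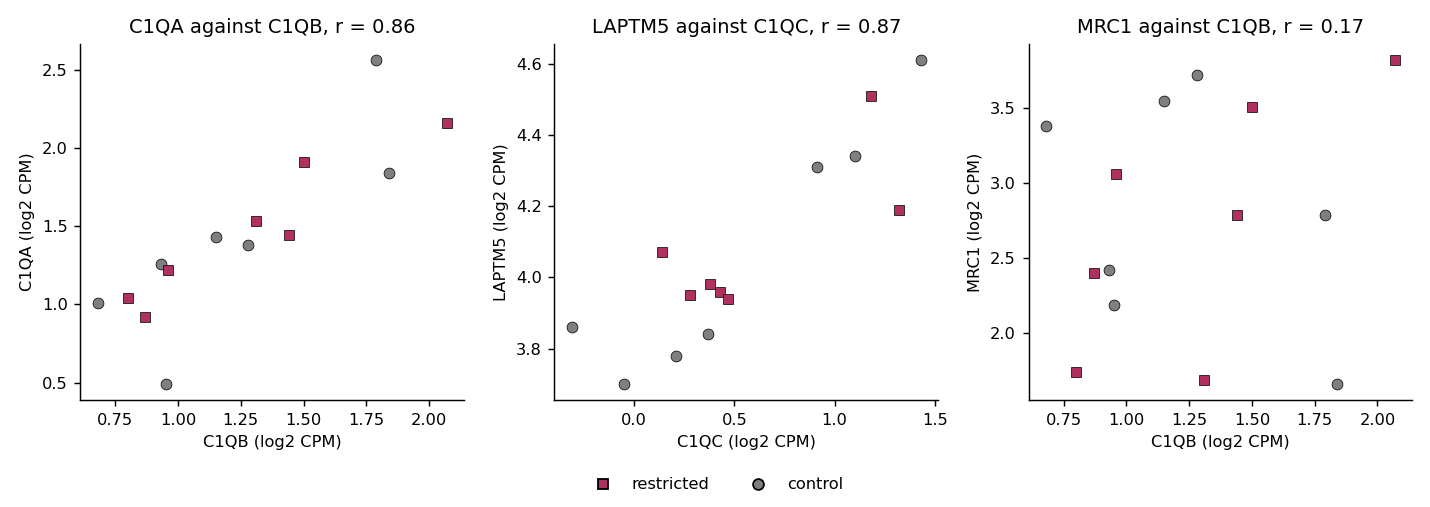
Log2 CPM of C1QA against C1QB, LAPTM5 against C1QC and MRC1 against C1QB, 1 point per animal, squares for restricted and circles for control animals. Points rise together in the first pair of panels (r = 0.86 and 0.87) and are scattered in the third (r = 0.17).

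Other leukocyte genes moved with the same animals. The r of the 9 markers with PTPRC ran from 0.31 for CD68 to 0.81 for C1QB (rho = 0.78; permutation p = 0.00041 and 0.0018), and 8 of the 9 had a permutation p of r under 0.05. Their r with CD3E, a chain of the T cell receptor complex, ran from 0.44 for CD68 to 0.85 for C1QC (rho = 0.89; permutation p = 0.00011 and 5e-05), with 7 of 9 under 0.05. Without the 2 animals farthest from the median of PTPRC or CD3E the values ran from 0.19 to 0.75 and from 0.21 to 0.77. MRC1 had r of 0.20 with PTPRC and 0.34 with CD3E. CD3E ran from 8 to 65 reads per animal. It is also 1 of the 10 genes picked below for the highest mean r with the markers, so its r is not separate evidence. The r of the 9 markers with the total count of the library ran from 0.16 for CD163 to 0.61 for AIF1 (rho = 0.56; permutation p = 0.0204 and 0.0406), and 4 of 9 had a permutation p of r under 0.05 (CD14, AIF1, C1QA and C1QC). Without control 1 and control 5, the animals farthest from the median total, r ran from -0.17 to 0.45. The part of other leukocytes and of depth in the covariation of the markers was not tested. These 20 relations to leukocyte genes and 10 to depth have no p adjusted over all genes.

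By a rule set on the mean r with the 10 markers over the 14 animals, the 10 other genes most like them were LCP1, FCER1G, F13A1, BOLA-DRA, SPN, CD3E, TMEM173, PLCB2, EVI2B and FMNL1. Their mean r ran from 0.633 for FMNL1 to 0.66 for LCP1, an actin-bundling protein of leukocytes. The median of 11441 other genes with a symbol was -0.016, and 1.26% of them were above 0.5. FCER1G, the common gamma chain of Fc receptors, had r from 0.043 with MRC1 to 0.915 with C1QC, at 1.33 CPM. BOLA-DRA, a class II MHC chain, was at 55.2 CPM and had r of 0.86 with C1QC. Each of the 10 had its lowest r with MRC1, from -0.056 for EVI2B to 0.338 for CD3E. Of the other lists, 4 of 5 tested T and NK cell markers and 8 of 17 pan-leukocyte genes had a mean r above 0.5. Fewer did in other lists of macrophage genes: 1 of 11 growth factors and lineage regulators of macrophages and 3 of 16 other scavenger and resident macrophage genes. So did 1 of 7 monocyte and recruited macrophage genes, 1 of 4 myeloid receptors and adaptors and 1 of 16 lysosomal genes of phagocytes. Of 20 complement genes 5 did, and of 6 class II MHC genes 2 did. Of the 16 fibroblast markers 4 did, and 0 of 13 endothelial, 14 adipocyte and 11 muscle fibre markers did.

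The third comparison set the markers against COL1A1. COL1A1 was highest in restricted 7, at 168 CPM, and lowest in control 5, at 45.4 CPM. The slope on COL1A1 was positive for 9 of the 10 markers, and none passed an adjusted p of 0.05 by edgeR, where 0.148% of all genes did. With an unadjusted p under 0.05 there were 5 of 10, against 7.13% of all genes. These were AIF1, CSF1R, CD14, C1QA and C1QC. The count depended on single animals: 2 of 10 without restricted 7 (748 of 12240 genes), 3 without control 5 and 4 without restricted 3. Without control 7, restricted 4 and restricted 7 it was 2 of 10 (814 of 12269 genes). Limma voom called 0 of 10, against 0.115% of all genes, and had 5 of 10 at an unadjusted p under 0.05, against 7.18% of all genes. The median slope of the 10 was 0.415 log2 per log2 of COL1A1, and that of all genes was -0.0042.

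AIF1 had r of 0.71 with COL1A1 (rho = 0.76, permutation p = 0.00427 and 0.00242) and a slope of 0.709 ± 0.189 (SE; adjusted p = 0.179 by edgeR). It was highest in restricted 7, at 2.43 CPM, and lowest in control 1, at 0.491 CPM. Without restricted 7 and control 2, the animals farthest from the median of COL1A1, r was 0.59, and within titles ending in A it was 0.46. CSF1R had r of 0.64 (rho = 0.67, permutation p = 0.0144 and 0.0112) and a slope of 0.741 ± 0.225 (SE; adjusted p = 0.269 by edgeR). Its r was 0.45 without those 2 animals and 0.32 within titles ending in A. CD14, C1QC and C1QA had r of 0.61, 0.59 and 0.55 (rho = 0.56, 0.57 and 0.56; permutation p of r = 0.0216, 0.0265 and 0.0423), and 0.51, 0.43 and 0.49 without those 2 animals. C1QA had the highest r within titles ending in A, 0.78. For CD163, CD68 and MRC1, r with COL1A1 was 0.22, -0.01 and 0.26, and for MRC1 it was -0.14 without restricted 7 and control 2. None of the slopes was shown to differ between the diets (0 of 10 markers and 0% of all genes by the interaction in edgeR, with 0 of 10 markers and 4.94% of all genes at an unadjusted p under 0.05). Of 19 tested interferon response genes 0 were called against COL1A1, while all 19 had a positive slope with a median of 1.49 log2 per log2. Restricted 7, the highest in COL1A1, was also highest in the most abundant of them, MX1 (83.4 CPM) and OAS1X (61.7 CPM). The part of the interferon genes in the slopes of the markers was not tested.

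ADIPOQ was highest in restricted 7, at 21.2 CPM, and lowest in control 6, at 1.07 CPM. None of the 10 markers passed for their slope on ADIPOQ, where 0.23% of all genes were called, all of them positive, including 8 of 13 other adipocyte markers. At an unadjusted p under 0.05 there were 2 of 10, against 4.55% of all genes, and they lay in opposite directions. Limma voom called 0 of 10, against 0.14% of all genes, and had 2 of 10 at an unadjusted p under 0.05, against 4.08% of all genes. MRC1 had r of 0.55 with ADIPOQ (rho = 0.52, permutation p = 0.0349 and 0.059) and a slope of 0.425 ± 0.156 (SE; adjusted p = 0.958 by edgeR). Control 6 was lowest in both genes and restricted 7 highest in both, and r was 0.25 without these 2 animals. It was 0.57 within titles ending in A, which hold control 6 but not restricted 7, and the slope ran from 0.369 to 0.473 with any 1 animal left out. CD68 had r of -0.50 (rho = -0.23, permutation p = 0.0615 and 0.426) and a slope of -0.264 ± 0.114 (SE; adjusted p = 0.999 by edgeR). For CD68, too, r moved to -0.28 without those 2 animals. The r of the other 8 ran from -0.27 for LAPTM5 to 0.37 for AIF1. Without control 6 and restricted 7 the r of CSF1R was 0.58 and that of AIF1 0.49. For CSF1R, r was 0.75 in restricted and -0.12 in control animals, and the slope difference between the diets did not pass (unadjusted p = 0.0233, adjusted p = 0.92 by edgeR, where 0% of all genes were called). It was 1 of 10 markers with an unadjusted p under 0.05 for that difference, against 5.29% of all genes.

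COL1A1 and ADIPOQ themselves had r of 0.49 with each other (rho = 0.58). With both in 1 fit the slope on COL1A1 was positive for all 10 markers, with a median of 0.544, and 6 of 10 had an unadjusted p under 0.05 against 7.96% of all genes. None passed after adjustment, where 0.0821% of all genes did. CSF1R had the steepest slope on COL1A1 in this fit, 0.856 ± 0.262 (SE; adjusted p = 0.367 by edgeR), and C1QC was at 0.795 ± 0.235 (SE; adjusted p = 0.33). The slope on ADIPOQ in the same fit was negative for 8 of the 10, and of MRC1 it was 0.418 ± 0.186 (SE; adjusted p = 0.951 by edgeR). None of the 10 passed for ADIPOQ, where 0.0492% of all genes did, and 4 of 10 had an unadjusted p under 0.05, against 5.18% of all genes. Of these 4, the slope on ADIPOQ was negative for CD68 (-0.333), C1QC (-0.261) and LAPTM5 (-0.157) and positive for MRC1. The fit with both genes was not repeated without control 6, the animal lowest in ADIPOQ. With ADIPOQ as the only predictor and control 6 left out, the slope was 0.396 for C1QC, 0.0879 for LAPTM5 and -0.225 for CD68.

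**Figure D4:**
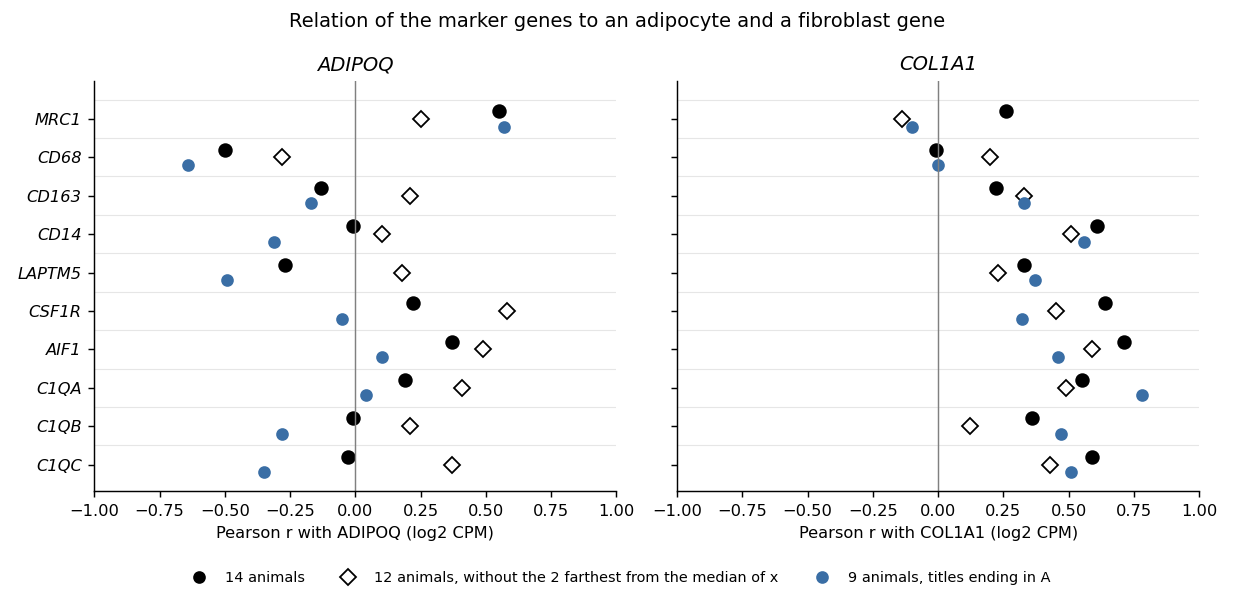
Pearson's r of each marker with ADIPOQ and with COL1A1 (x axis, log2 CPM), for 14 animals (filled black), for 12 animals without the 2 farthest from the median of the gene on the x axis (open diamonds) and for the 9 animals with titles ending in A (blue). AIF1 and CSF1R reach 0.71 and 0.64 with COL1A1, while MRC1 reaches 0.55 with ADIPOQ and drops to 0.25 without control 6 and restricted 7.

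The title letter was compared with the diet kept in the fit. None of the 10 markers passed an adjusted p of 0.05 between titles ending in B and in A by edgeR, where 0% of all genes did. At an unadjusted p under 0.05 there were 2 of 10, CSF1R and AIF1, against 5.92% of all genes. Limma voom called 0 genes of all tested (0%), with 2 of the 10 markers at an unadjusted p under 0.05, against 6.77% of all genes. CSF1R ran from 2.33 through 4.39 to 5.21 CPM in the 5 animals with B and from 1.10 through 2.03 to 4.17 CPM in the 9 with A. All 5 animals with B lay above the median of A and 3 above the highest of A, a ratio of 1.85 (95% interval 1.18 to 2.89, adjusted p = 0.788 by edgeR). AIF1 ran from 1.29 through 1.52 to 2.43 CPM in animals with B and from 0.491 through 1.02 to 1.95 CPM in those with A, a ratio of 1.6 (1.07 to 2.39, adjusted p = 0.803 by edgeR). MRC1 was at 9.06 ± 4.6 CPM in B (SD, n = 5) and 6.77 ± 3.34 CPM in A (SD, n = 9), a ratio of 1.37 (0.793 to 2.38). For C1QC the ratio was 1.34 (0.857 to 2.11), and for C1QA and C1QB it was 1.11 and 1.05. The ratio was 1.02 for CD68 and 0.973 for CD163.

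COL1A1 moved with the same letter, at 119 ± 31.6 CPM in B and 61.7 ± 18.8 CPM in A, a ratio of 1.96 (1.48 to 2.61, adjusted p = 0.293 by edgeR). The summed fibroblast list ran from 830 to 1370 CPM in B and from 516 to 967 CPM in A, with 16 of 16 markers on the higher side in B. Pan-leukocyte genes summed to 210 to 240 CPM in B and 167 to 223 CPM in A, with 16 of 17 on the higher side in B, and T and NK cell markers to 7.42 to 15.3 CPM in B and 3.16 to 10.4 CPM in A. This side was not particular to these lists, as it also held 12 of 14 adipocyte, 17 of 20 complement and 10 of 12 smooth muscle and pericyte genes. It held 2 of 6 lymphatic endothelial, 3 of 6 Schwann cell and 0 of 11 muscle fibre markers. The median over all genes was -0.0034 log2. With ADIPOQ and COL1A1 also in the fit, CSF1R lay at 0.33 log2 between B and A (unadjusted p = 0.511, adjusted p = 0.981 by edgeR) and AIF1 at -0.01 log2 (unadjusted p = 0.981, adjusted p = 1 by edgeR). The part of these other cells in the values of CSF1R and AIF1 was not tested.

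**Figure D5:**
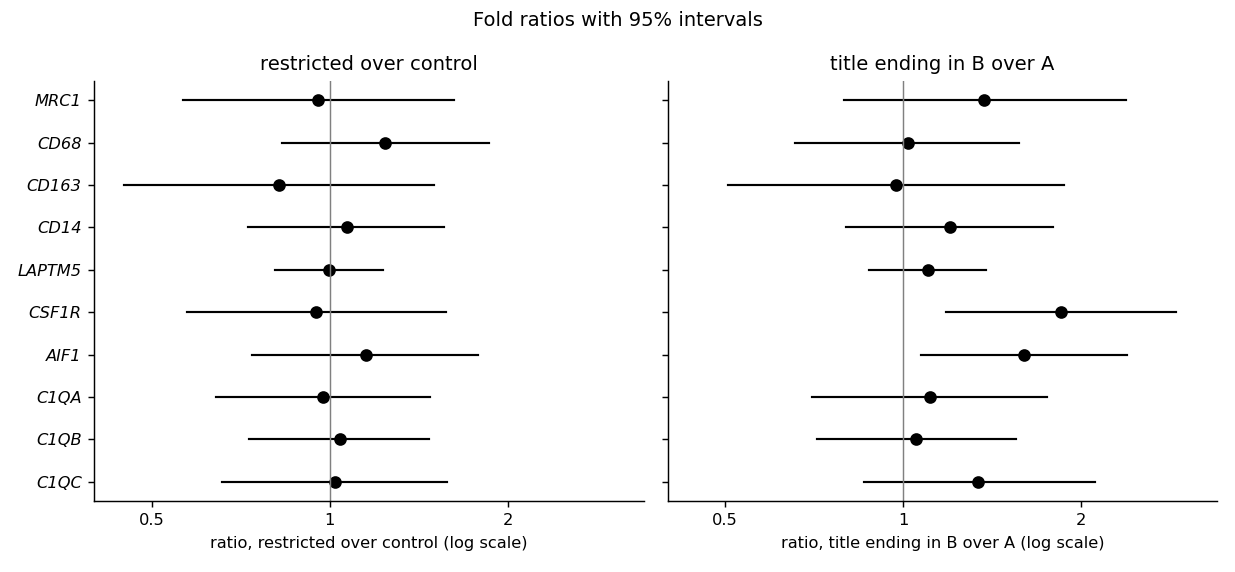
Fold ratios of each marker with 95% intervals from edgeR (x axis, log scale), restricted over control on the left and titles ending in B over A on the right. Every interval on the left spans 1, and on the right those of CSF1R (1.18 to 2.89) and AIF1 (1.07 to 2.39) lie above 1 before adjustment for all genes tested.

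The genes that act around these markers were examined by lists. None of their members passed between the diets or between the letters. Of the 11 tested growth factors and lineage regulators of macrophages, 3 lay on the higher side in restricted animals, with a median of -0.164 log2. CSF1, the ligand of the CSF1R receptor, was at 4.76 ± 1.21 CPM in restricted and 5.03 ± 1.2 CPM in control animals (SD, n = 7 each), a ratio of 0.945 (0.729 to 1.23). IL34, the other ligand of that receptor, was at 3.15 ± 1.17 CPM in restricted and 3.76 ± 0.665 CPM in control animals, a ratio of 0.840 (0.620 to 1.14). CSF1 had r of 0.66 with COL1A1 (rho = 0.67, permutation p = 0.00977 and 0.0109; adjusted p = 0.376 by edgeR), or 0.59 without restricted 7 and control 2 and 0.83 within titles ending in A. IL34 had r of -0.20 with COL1A1 and -0.41 with ADIPOQ (rho = -0.17 and -0.44, permutation p of r = 0.487 and 0.144). MAF and NR1H3, transcription factors of macrophages that other cells also express, were the most abundant of the list at 44.6 and 27.9 CPM, and SPI1 was at 0.588 ± 0.291 CPM in restricted and 0.666 ± 0.225 CPM in control animals.

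Of the 16 tested scavenger and resident macrophage genes outside the 10 markers, 8 lay on the higher side in restricted animals, with a median of 0.0071 log2. FOLR2, TIMD4, VSIG4, CD209, MARCO and CD5L, further genes used to mark resident macrophages, were below the filter. The most abundant of this list, CD36 and SLC40A1 (a fatty acid transporter and the iron exporter ferroportin), are expressed by other cells too and were at 239 ± 32 and 66.7 ± 13.2 CPM in restricted and 237 ± 24.1 and 66.9 ± 13.9 CPM in control animals. Of the 7 tested monocyte and recruited macrophage genes, 5 lay on the higher side in restricted animals, and CCR2, S100A8, S100A9 and ITGAM were below the filter. IL1B, an inflammatory cytokine, was at 2.98 ± 0.974 CPM in restricted and 4.17 ± 2.01 CPM in control animals, a ratio of 0.717 (0.473 to 1.09). The 20 tested complement genes had 11 on the higher side, with a median of 0.00041 log2, and of the 17 pan-leukocyte genes 10 did. Among 6 class II MHC genes 5 did, with CD74, the invariant chain, at 188 ± 67.0 CPM in restricted and 166 ± 32.5 CPM in control animals. Its ratio was 1.13 (0.876 to 1.46), and its medians were 169 and 158 CPM. Only restricted 1, at 335 CPM, lay above the highest control animal, at 212 CPM.

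Against COL1A1 18 of the 20 complement genes and 16 of the 17 pan-leukocyte genes had a positive slope, with medians of 0.308 and 0.307 log2 per log2, and 0 were called in each list. Of the 15 tested fibroblast markers other than COL1A1, all had a positive slope and 4 were called (LUM, COL1A2, THY1 and COL3A1). Against ADIPOQ 13 of 20 complement genes and 9 of 17 pan-leukocyte genes had a positive slope, with medians of 0.048 and 0.0088.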

How the data were processed

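RNA sequencing libraries of 14 animals were analysed from gene counts that the authors deposited as unnormalized whole numbers. Per the submitters' processing notes, FastQC, HISAT2, featureCounts and edgeR were used with the build ARS-UCD1.2; tool versions and the handling of strand and of multiply mapped reads were not stated in the labels. Gene model lengths are another column deposited by the authors. Depth was 13631018 to 17325779 counts. The function filterByExpr of edgeR 4.0.16 (R 4.3.3) selected genes, at a minimum count of 10 and a minimum total of 15, and TMM factors scaled the libraries. Quasi-likelihood F tests were fitted across all 12187 genes, or all but the predictor, and adjusted by Benjamini-Hochberg at 0.05. Predictors and correlations used log2 CPM (prior count 2), and permutation p-values are two-sided with 100000 resamples. Standard errors are the coefficient divided by the root of F. The diet fit and a slope fit were run on simulated data to check only the sign and size of estimates. The changed genes there had higher mean counts than CD163 and CD68, and the share recovered is not given here. Alternatives used limma 3.58.1 and DESeq2 1.42.0, other scaling, filters, covariates and subsets.

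Groups follow the treatment label, and replicate numbers follow sample order. Whether animals are independent of litter or sire is not stated, so p-values measure the spread between these samples. Members and lists were chosen with earlier results of these data known. Named genes were the 10 markers, ADIPOQ, COL1A1, CSF1, IL34, SPI1, PTPRC, TYROBP, the 2 most abundant of each list and the 10 genes most like the markers by mean r. Others, such as genes of a list below the filter or called against COL1A1, were named after their values were seen. RefSeq names came from ARS-UCD2.0, without coordinates. No sequence was used here.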

Additional observations from a re-analysis of the deposited data

How the results depend on the processing

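No marker passed an adjusted p of 0.05 for diet, title letter, ADIPOQ or COL1A1 under any alternative run. The lowest adjusted p was 0.896 over 249 values for diet, 0.459 over 219 for the letter, 0.563 over 229 for ADIPOQ and 0.106 over 229 for COL1A1. Signs turned in 57, 24, 25 and 6 of these values, and the cause was not tested. CD163, CD68, AIF1 and C1QC rested on about 15 to 23 reads per animal, which limits their precision. No paired analysis was possible because replicate numbers only follow sample order.

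For diet (log2, restricted over control), values that changed sign were 7.73e-06 for LAPTM5 with relative log expression scaling, -0.025 for C1QC with library size only, 0.0064 for LAPTM5 with no filter, and 6.87e-05 for LAPTM5 with DESeq2. Limma voom gave -0.026 for CD14, 0.018 for LAPTM5 and 0.018 for C1QA. The last title letter in the fit gave -0.072 for C1QC, the first title letter (R or Y) gave 0.056 for MRC1 and 0.0099 for LAPTM5, and ADIPOQ and COL1A1 gave 0.025 for LAPTM5. Without the 3 animals high in interferon genes, CD163 was at 0.062, CD14 at -0.13, LAPTM5 at 0.044, C1QA at 0.055, C1QB at -0.050 and C1QC at -0.014. Within titles ending in A, CD14 was at -0.067, AIF1 at -0.11, C1QB at -0.24 and C1QC at -0.36. DESeq2, and titles ending in A alone, each called 1 gene of all tested. Leaving out each animal in turn gave -0.30 to 0.11 for MRC1, -0.47 to 0.026 for CD163, -0.073 to 0.20 for CD14, -0.31 to 0.062 for CSF1R, -0.086 to 0.10 for LAPTM5, -0.19 to 0.24 for C1QA, -0.13 to 0.18 for C1QB and -0.14 to 0.23 for C1QC.

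For the letter (B over A), CD163 was at 0.025 with library size only, 0.31 without the 3 animals and 0.39 with limma voom, and C1QB was at -0.084 without the 3 animals. With diet, ADIPOQ and COL1A1 in the fit, CD14 was at -0.58, LAPTM5 at -0.042, AIF1 at -0.00999, C1QA at -0.86, C1QB at -0.62 and C1QC at -0.27. Genes called came to 1 with no filter, 5 without the 3 animals and 9 with diet, ADIPOQ and COL1A1 in the fit. Leaving out each animal gave 0 to 2 genes (1 without control 3 or restricted 7, 2 without control 4 or control 7), -0.18 to 0.19 for CD163, -0.086 to 0.18 for CD68, -0.033 to 0.33 for C1QA and -0.17 to 0.21 for C1QB.

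For ADIPOQ, 28 genes were called, against 51 with no filter, 2 without the 3 animals, 17 with limma voom and 8 with the title letter in the fit. Leaving out each animal gave 7 to 29, with 7 without control 6 and 8 without restricted 7. The slope of CD14 was -0.00066 with no filter, -0.18 without the 3 animals, -0.0028 with limma voom, -0.0010 with diet, -0.060 with the letter and -0.00032 with a prior count of 0.5. That of C1QB was -0.21 without the 3 animals, -0.020 with limma voom and -0.013 with the letter, and that of CSF1R -0.064 and -0.029 without the 3 animals and with the letter. C1QA was at -0.13 without the 3 animals. Leaving out each animal gave -0.11 to 0.22 for CD14, -0.11 to 0.29 for C1QB, -0.15 to 0.40 for C1QC, -0.29 to 0.17 for CD163 and -0.10 to 0.088 for LAPTM5.

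For COL1A1, 18 genes were called, against 31 with library size only, 82 with no filter, 7 without the 3 animals, 10 with diet and 51 with the letter in the fit. Leaving out each animal gave 6 to 21: 10 without control 1, 9 without control 3, control 5 or control 7, 8 without restricted 1 or restricted 7, 7 without restricted 3 or restricted 6 and 6 without restricted 5. CD68 was at 0.061 without the 3 animals and 0.0042 with limma voom, and from -0.15 to 0.043 with each animal left out. C1QB was at -0.081 without the 3 animals.

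Between the markers, 5 calls became 8 with library size only, and 0 without the 3 animals and in titles ending in A. Leaving out each animal gave 0 to 5. The median r with MRC1 was -0.10 without the 3 animals, -0.38 in titles ending in A and from -0.05 to 0.29 with each animal left out.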

Other observations

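The genes most like MRC1 were looked up after its lower r with the other markers was seen. The highest r with MRC1 over the 14 animals belonged to SAMSN1 and SNRPD3 (0.82 each), NPC2 and CELSR1 (0.78 each) and PPIC (0.77), at 0.743, 36.7, 18.3, 0.573 and 5.50 CPM. With MRC1 as predictor edgeR called 0 of 12186 genes after adjustment, and the adjusted p of each of these 5 was 0.705. Across those genes, which are not independent, Spearman's rho between a gene's r with MRC1 and its model length was -0.20, while for the other 9 markers the same value ran from -0.05 to 0.10.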
